A study of Homo sapiens with 36 samples.

Results

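Receptor tyrosine kinases were measured as 30 of the 2549 genes of a targeted RNA panel, in 36 human lymphoma cell lines. They were chosen by symbol from the panel's count table: a list of 31 symbols, of which 28 had a row, and the ephrin receptors on the panel, which were EPHA2 and EPHB4. TYRO3, NTRK3 and DDR2 were not analysed here. Of the 30 kinases, 22 passed a filter on low counts (at least 10 CPM, a count scaled to the size of its library, in at least 4 lines) and entered the tests. ERBB3, KIT, FLT4, KDR, AXL, RET, ROS1 and TEK did not pass, and their levels are given without a test.

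Receptor tyrosine kinases are surface proteins that bind a growth factor outside the cell, pair up and phosphorylate each other inside it. The signal passes through adaptor proteins to RAS and the ERK kinases and to other pathways, and it is damped by feedback genes that ERK switches on, such as those of the Sprouty and dual-specificity phosphatase families. Most are best known from epithelium, endothelium, nerve or myeloid cells, whereas mature B cells signal mainly through the B-cell receptor, so these kinases are not defining genes of a B-cell lymphoma.

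Each line gave 1 library, made from a lysate of cultured cells, and no line was measured again. The lines are immortal cultures, each grown from 1 patient's tumour, and none was given a treatment in the labels. The labels name the lines and give no lymphoma type. Types were therefore taken from general knowledge of the named lines. Diffuse large B-cell lymphoma (DLBCL) of the germinal-centre type (GCB) had 14 lines: DB, DOHH2, KARPAS422, OCILY1, OCILY7, OCILY8, OCILY18, OCILY19, SUDHL4, SUDHL6, SUDHL10, SUDHL16, TOLEDO and WSU_DLCL2. The activated type (ABC) had 5 lines: HBL1, RIVA, SUDHL2, TMD8 and U2932. Mantle cell lymphoma had 9 lines: GRANTA519, JEKO1, JVM2, MAVER1, MINO, REC1, SP49, SP53 and UPN1. Marginal zone lymphoma and hairy cell leukaemia formed 1 group of 5 lines: HAIR_M, HC_1, KARPAS1718, SSK41 and VL51. MEC1, from chronic lymphocytic leukaemia (CLL), and FARAGE and RCK8, which were given no type, entered no comparison of types.

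Total counts ran from 6422917 to 13451527 per library, with a median of 10476681. A count of 0 allowed at most 0.474 CPM in any library, and this limit and the intervals below cover counting error only. The 7 B-cell markers on the panel lay above the library's highest control target in every line, and their sum ran from 5123 CPM in MEC1 to 83656 CPM in KARPAS1718. One library differed from the rest, that of MEC1, whose highest control target had 424 counts against a median of 10 over libraries. Its TMM factor, the scaling that accounts for how a few abundant genes fill a library, was 1.87, the highest of the 36. The factor is low where a few abundant genes take more of the library and high where they take less. MEC1 also had the highest sums of 9 myeloid markers (1087 CPM, median 361 CPM) and of 9 epithelial and neural markers (2865 CPM, median 1027 CPM), whose part in its kinase levels was not tested. MEC1 was the highest line for 13 of the 30 kinases and among the 3 highest for 22. It was highest for 7 of the 22 tested kinases, and for 18.8% of all genes tested. Among the 3 highest lines it stood for 31.5% of all genes tested, while the 30 kinases include those that did not pass the filter. In a lysate, fewer expressing cells and less RNA per cell cannot be told apart. Counts carry no target length, so each kinase was compared with itself across lines and not with another kinase.

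**Figure D1:**
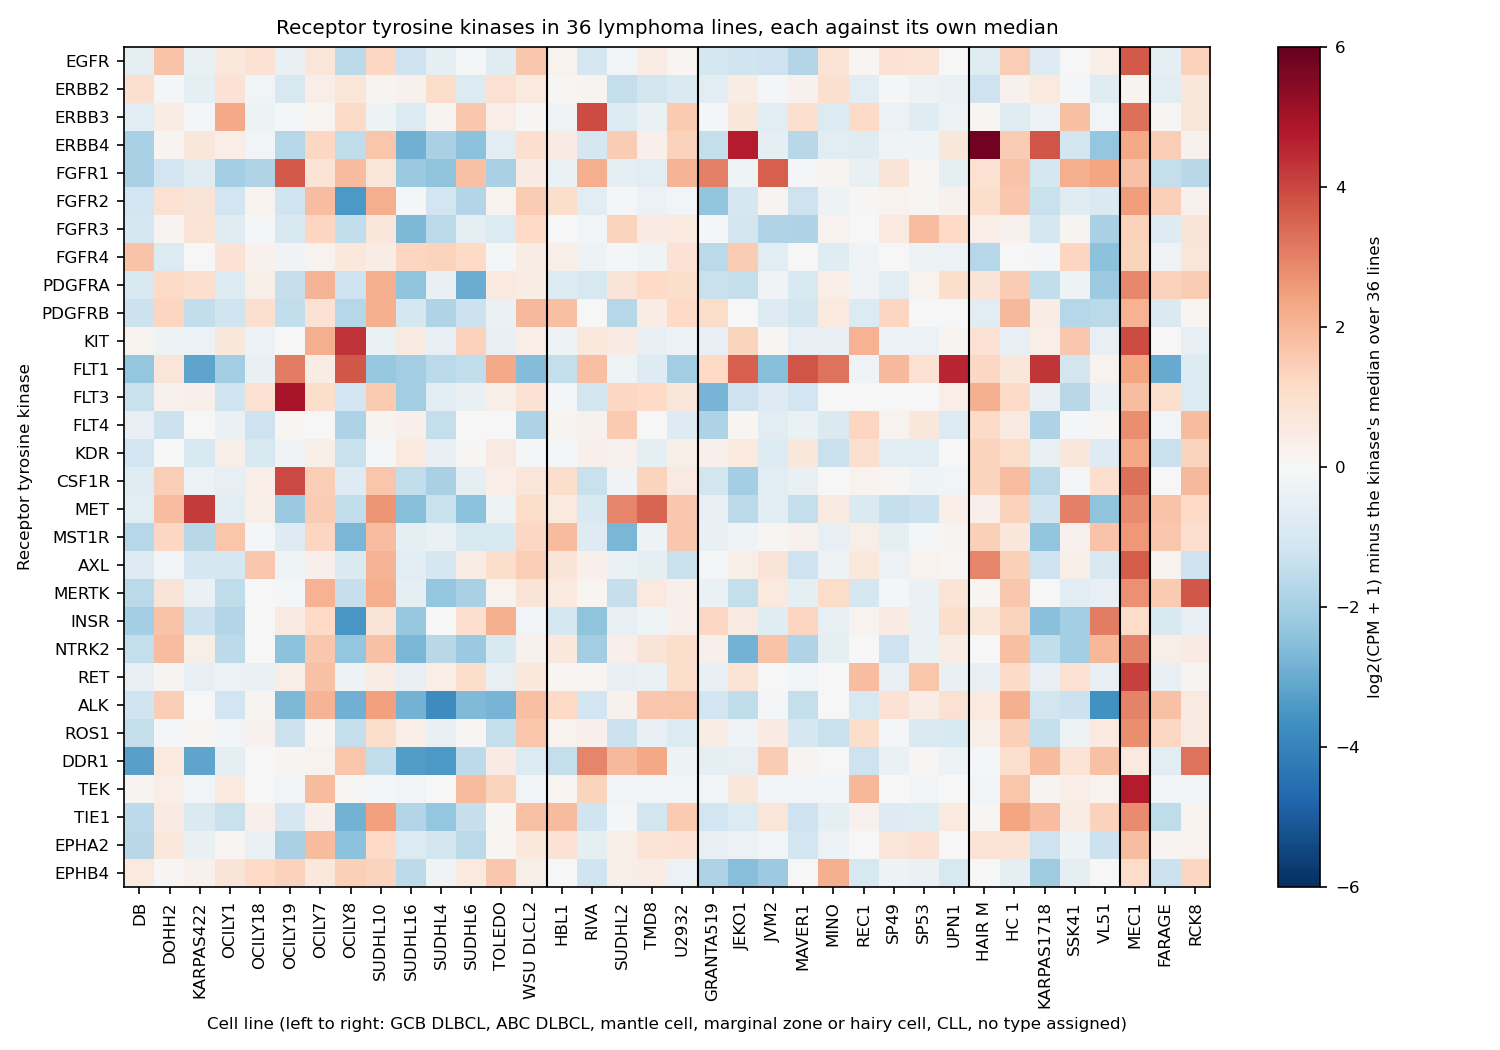
Level of each of 30 receptor tyrosine kinases (rows) in each of 36 lines (columns, grouped by type), as log2(CPM + 1) minus that kinase's median over the lines. Most kinases lie near their median in most lines, single red cells mark lines such as HAIR_M for ERBB4 and OCILY19 for FLT3, and the MEC1 column is red for many kinases.

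A line was called high for a kinase where it held at least 8 times the kinase's median and at least 50 CPM. By this rule 11 kinases were high in 1 to 5 lines: EGFR, ERBB4, FGFR1, FLT3, CSF1R, MET, MERTK, INSR, NTRK2, ALK and DDR1. Of all panel genes, 23.8% met the same rule. Without the MEC1 library 8 of the 11 met it, against 20.0% of panel genes, since EGFR, NTRK2 and ALK were high in MEC1 alone. FLT1 was high in 7 lines, and the other 18 kinases in none. The high levels of these 11 kinases lay in 12 lines. MEC1 was high for 4 of the 11 (EGFR, CSF1R, NTRK2 and ALK) and OCILY19 for 3 (FGFR1, FLT3 and CSF1R). The median SD of log2 CPM across lines was 1.51 for the 22 tested kinases and 1.20 for all genes tested. FLT1 alone among the tested kinases had an SD over 2, at 2.68.

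The ERBB receptors bind epidermal growth factor and the neuregulins. ERBB4, a neuregulin receptor at chromosome 2, 211375717 to 212538841 of GRCh38, had the highest peak over its median of the tested kinases. It was at 2321 CPM in HAIR_M (95% Poisson interval 2286 to 2356), 1074 CPM in JEKO1 and 569 CPM in KARPAS1718. The lowest of the 36 lines, SUDHL16, had 4.58 CPM, the median was 40.8 CPM, and the next line after those named was MEC1 at 198 CPM. HAIR_M, JEKO1 and KARPAS1718 thus stood 56.9, 26.3 and 13.9 times over the median. ERBB2, the ERBB receptor that binds no ligand itself, was the steadiest of the kinases: it was at 10 CPM or more in all 36 lines, from 23.3 CPM in SUDHL2 through a median of 64.7 CPM to 138 CPM in SUDHL4, with an SD of 0.70 log2 units. EGFR was low: its median was 3.80 CPM and 30 lines lay below 10 CPM. It reached 60.5 CPM in MEC1 and 14.8 CPM in the next line, DOHH2. ERBB3, which signals through its partners because its own kinase is weak, had a median of 0.795 CPM. It reached 25.9 CPM in RIVA (277 counts, against 21 for the highest control target of that library) and 16.5 CPM in MEC1, where its 362 counts lay below the highest control target.

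The 4 fibroblast growth factor receptors differed in how unevenly they were spread. FGFR1 was highest in OCILY19 (655 CPM, 638 to 672), JVM2 (622 CPM) and GRANTA519 (426 CPM), with VL51 next at 265 CPM. Its median was 50.9 CPM and its lowest level 8.84 CPM, in SUDHL4. FGFR2 ran from 1.11 CPM in OCILY8 through a median of 22.2 CPM to 131 CPM in MEC1, and SUDHL10 followed at 104 CPM. FGFR3 was highest in SP53 (50.1 CPM, median 13.2 CPM) and FGFR4 in DB (64.6 CPM, median 18.8 CPM). No line was high for FGFR2, FGFR3 or FGFR4 by the rule above.

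The class III receptors respond to platelet-derived growth factors and to the cytokines that drive early blood and myeloid cells. FLT3, the receptor of FLT3 ligand on blood progenitors, was at 327 CPM in OCILY19 (2785 counts, interval 315 to 339). HAIR_M followed at 45.1 CPM and MEC1 at 37.0 CPM, and the median was 9.48 CPM. The lowest line, GRANTA519, had 0.514 CPM, from 4 counts, below the 8 of its highest control target. OCILY19 therefore held 7.25 times the next line's level, the widest lead of a tested kinase. CSF1R, the receptor of colony-stimulating factor 1 on macrophages, was highest in the same line at 125 CPM (118 to 133). MEC1 followed at 81.0 CPM and RCK8 at 30.9 CPM, against a median of 7.22 CPM and a lowest level of 0.986 CPM in JEKO1. This lowest level came from 9 counts, below the 16 of that library's highest control target. KIT, the stem cell factor receptor, was listed with a count of 0 in 9 lines and had a median of 0.391 CPM. It reached 27.5 CPM in OCILY8 (174 counts, where the highest control target had 2), and 20.2 CPM in MEC1, where its 443 counts barely passed the control target. PDGFRA had a median of 30.7 CPM and was highest in MEC1 (234 CPM), SUDHL10 (143 CPM) and OCILY7 (128 CPM). PDGFRB had a median of 10.5 CPM and was highest in SUDHL10 (49.7 CPM).

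The promoters of FLT3 and CSF1R are shown because these receptors peaked in the same line. They are the 250 bases before the gene starts that RefSeq gives on GRCh38.p14, written from 5′ to 3′ on the gene's strand. RefSeq gives CSF1R a pair of starts. Most of the first window lies past the annotated CSF1R gene (chromosome 5, 150053291 to 150113372), toward PDGFRB, whose nearer annotated end is 464 bases away. The second window lies inside the CSF1R gene. Capitals mark matches on either strand to the GC box, spelled GGGCGG, to the CCAAT box, to the TATA box, spelled TATAAA, and to GAGGAA, the core bound by the myeloid and B-cell factor PU.1.
FLT3, chr13:28100577-28100826, minus strand: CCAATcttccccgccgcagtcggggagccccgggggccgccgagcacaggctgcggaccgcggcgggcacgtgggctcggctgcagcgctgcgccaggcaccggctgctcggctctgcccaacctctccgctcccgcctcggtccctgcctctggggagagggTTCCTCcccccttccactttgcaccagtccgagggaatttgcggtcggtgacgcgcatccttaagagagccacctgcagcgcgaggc
CSF1R, first start, chr5:150113366-150113615, minus strand: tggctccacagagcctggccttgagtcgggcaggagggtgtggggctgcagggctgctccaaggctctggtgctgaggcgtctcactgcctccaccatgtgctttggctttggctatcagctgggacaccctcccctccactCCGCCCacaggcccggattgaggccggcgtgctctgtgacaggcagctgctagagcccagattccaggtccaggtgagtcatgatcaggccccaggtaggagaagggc
CSF1R, second start, chr5:150086555-150086804, minus strand: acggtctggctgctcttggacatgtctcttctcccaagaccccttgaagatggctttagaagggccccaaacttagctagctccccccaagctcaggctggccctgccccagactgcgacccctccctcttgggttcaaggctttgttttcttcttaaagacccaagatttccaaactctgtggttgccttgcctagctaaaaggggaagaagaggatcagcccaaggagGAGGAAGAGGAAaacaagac

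GAGGAA matched once before the FLT3 start, 2 times before the second CSF1R start and not before the first. Of 35116 promoters of this length, 23.6% held it. The GC box matched once, before the first CSF1R start (42.6% of promoters), CCAAT once, before the FLT3 start (32.0%), and TATAAA in none of the 3 windows (10.7%). The windows held 72%, 64.4% and 53.2% G or C in the order shown.

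Genes listed as targets or feedback regulators of ERK were also examined in OCILY19, and signalling itself was not measured. Of 15 such genes, 5 had their highest level there: SPRY4, DUSP6, ETV5, EGR1 and FOSL1. The rest peaked in other lines, such as ETV4 in MEC1 and DUSP4 in RCK8. Of all genes tested, 4.24% had their highest level in OCILY19. The list was chosen with earlier results of these data known, and the line for its kinase levels. The count and the share are therefore a description and not a test. SPRY4, a Sprouty inhibitor of receptor signalling, was at 1150 CPM, with RCK8 next at 385 CPM and a median of 21.7 CPM. DUSP6, a phosphatase of ERK, was at 426 CPM against 151 CPM in SUDHL10 and a median of 42.6 CPM. ETV5, a transcription factor induced by fibroblast growth factors, was at 376 CPM, with SUDHL2 next at 300 CPM. EGR1, an immediate early gene, held 6226 of the list's summed 10007 CPM in OCILY19, and the median sum over lines was 1562 CPM.

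Markers of other cells were measured beside this result. OCILY19 was rank 11 of 36 for the sum of the 7 B-cell markers (33742 CPM). Its sum over 9 myeloid markers was 868 CPM, rank 3, over a range of 131 to 1087 CPM. Of this, CD68, which is not confined to myeloid cells, made up 795 CPM. Its sum over 9 stromal and endothelial markers was the highest, 2995 CPM over a range of 37.5 to 2995 CPM. ENG, an endothelial receptor, made up 2869 CPM of this sum. The part of these markers in the kinase levels was not tested. Neither ligand stood out in this line: FLT3LG was at 105 CPM against a median of 112 CPM, and CSF1 at 5.63 CPM against 25.2 CPM.

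**Figure D2:**
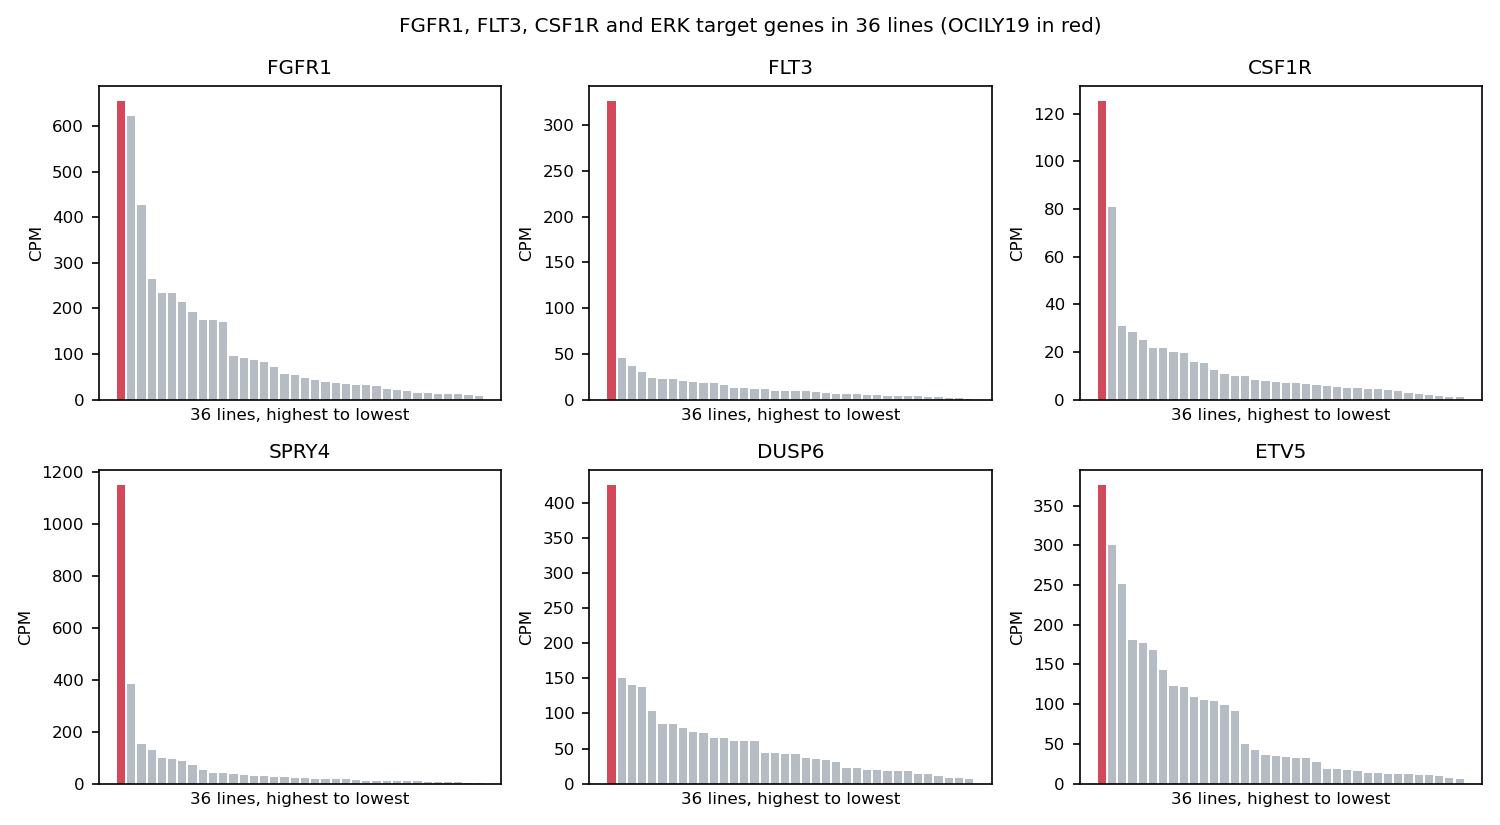
CPM of FGFR1, FLT3 and CSF1R (upper row) and of SPRY4, DUSP6 and ETV5 (lower row) in 36 lines, each sorted from the highest to the lowest line, with OCILY19 in red and a vertical axis from 0. OCILY19 is the highest line in all 6 panels, with a wide lead for FLT3 (327 CPM against 45.1) and a narrow one for FGFR1 (655 CPM against 622). The genes of the lower row were taken from the 5 of 15 listed ERK genes that were highest in this line.

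The panel genes whose log2 CPM followed FLT3 most closely across the 36 lines were EMP1 (Pearson r = 0.86), ERG (0.83) and GBP2 (0.78). For CSF1R they were SPRY4 (0.86), ERG (0.85) and ETV4 (0.83). Without OCILY19 these values were 0.80, 0.77 and 0.80 for FLT3 and 0.82, 0.81 and 0.82 for CSF1R. ERG, a transcription factor of endothelium and blood stem cells, was itself highest in OCILY19 at 362 CPM, with MEC1 next at 99.6 CPM. FGFR1 was nearest to EGR3 (0.65), NOV (0.62) and FZD8 (0.56). These are descriptions over lines that share libraries and scaling, with no test.

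The receptors of vascular endothelial growth factors are FLT1, KDR and FLT4. FLT1, the decoy-like receptor at chromosome 13, 28300344 to 28495145, was the most variable kinase tested. Its highest lines were UPN1 (230 CPM), KARPAS1718 (188 CPM), MAVER1 (134 CPM), OCILY8 (130 CPM), JEKO1 (118 CPM), MINO (92.9 CPM) and OCILY19 (80.1 CPM). The median was 8.83 CPM, 18 lines lay below 10 CPM, and KARPAS422 had the lowest level, 0.0913 CPM. That value came from 1 count, below the 7 of its highest control target. FLT1 lay above the highest control target in 30 of the 36 lines. Of the 7 high lines 4 are mantle cell lines, and mantle cell lines also lay at the other end, with JVM2 at 0.648 CPM. There 5 counts lay below the 12 of the highest control target. KDR, the main signalling receptor of endothelium, stayed at 11.4 CPM or below, and that highest value was from MEC1, where its 249 counts lay under the highest control target. FLT4, the lymphatic receptor, reached 24.4 CPM in MEC1 and 12.7 CPM in RCK8.

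MET, the hepatocyte growth factor receptor at chromosome 7, 116672390 to 116798386, was highest in KARPAS422 (983 CPM, 965 to 1002), TMD8 (597 CPM) and SSK41 (442 CPM). SUDHL2 (407 CPM) and MEC1 (383 CPM) followed, against a median of 54.1 CPM and a lowest level of 8.12 CPM in SUDHL16. Its 3 nearest genes were CASP12 (r = 0.85), STEAP4 (0.84) and LYVE1 (0.83). MST1R, the related receptor of macrophage-stimulating protein, had a median of 9.00 CPM, with 60.1 CPM in MEC1 and 35.7 CPM in HBL1.

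MERTK, a receptor through which phagocytes take up dying cells, was at 605 CPM in RCK8 (591 to 619). MEC1 followed at 311 CPM, SUDHL10 at 206 CPM and OCILY7 at 193 CPM, over a median of 45.3 CPM. Its nearest genes were GBP7 (r = 0.81), CCL28 (0.80) and CCR3 (0.80). AXL, of the same family, had a median of 1.74 CPM and reached 33.3 CPM in MEC1 and 20.0 CPM in HAIR_M.

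INSR, the insulin receptor, was highest in VL51 (397 CPM, 382 to 412), ahead of TOLEDO (203 CPM) and DOHH2 (151 CPM), with a median of 46.0 CPM. SPARC (r = 0.62), S100A2 (0.61) and CADM1 (0.60) were nearest to it. OCILY8 had its lowest level, 3.16 CPM. DDR1, a receptor of collagen at chromosome 6, 30876421 to 30900156, was highest in RCK8 (981 CPM) and RIVA (769 CPM), then TMD8 (503 CPM) and SUDHL2 (398 CPM). Its median was 101 CPM, and SUDHL4 had the lowest level, 8.50 CPM. The nearest genes to DDR1 were BHLHE40 (r = 0.73), IRF4 (0.70) and TP53BP2 (0.69).

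The receptors best known from nerve cells or as partners of oncogenic fusions were highest in MEC1 in each case: NTRK2 (239 CPM), ALK (273 CPM), RET (23.8 CPM) and ROS1 (18.0 CPM). The 394 counts of ROS1 in MEC1 lay below that library's highest control target. Without MEC1 the highest NTRK2 was 118 CPM in VL51 and the highest ALK 187 CPM in SUDHL10, under 8 times their medians of 29.3 and 33.3 CPM. RET then reached 4.21 CPM and ROS1 7.61 CPM. ALK, the anaplastic lymphoma kinase, followed CCL2, CCL8 and RXRG with r from 0.94 to 0.95, which was 0.94 to 0.95 without MEC1 too. Of the 2405 other genes tested, 202 had an r over 0.8 with ALK and 224 with PDGFRA (168 and 172 without MEC1), while none had with ERBB4, FGFR1, DDR1 or INSR. NTRK2 was nearest to CACNA1E (0.91), EYA1 (0.89) and SLCO1B3 (0.89), and EGFR to CEACAM5 (0.84), SLC2A14 (0.83) and GRB10 (0.83). Without MEC1 these were 0.90, 0.87 and 0.87 for NTRK2 and 0.80, 0.81 and 0.78 for EGFR.

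TIE1 and TEK are receptors of the angiopoietin system of vessels. TIE1 had a median of 9.52 CPM and was highest in MEC1 (74.7 CPM), SUDHL10 (56.0 CPM) and HC_1 (53.5 CPM). TEK was listed with a count of 0 in 15 lines and lay above the highest control target in 4. It reached 28.4 CPM in MEC1 and 3.41 CPM in REC1, where its 47 counts lay below the control target's 56. EPHA2, an ephrin receptor, ran to 44.7 CPM in OCILY7 over a median of 11.3 CPM. EPHB4, which binds ephrin-B2, was highest in MINO (118 CPM) over a median of 25.2 CPM.

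Levels were then compared between lymphoma types over lines, by edgeR's quasi-likelihood test with Benjamini-Hochberg adjustment over 2406 genes. The F test over 4 types called 1 of the 22 kinases, ERBB4 (adjusted p = 0.025), and 6.15% of all genes tested. FLT3, MET and DDR1 had an unadjusted p under 0.05 and did not pass (adjusted p = 0.25, 0.21 and 0.081). The share of all genes with an unadjusted p under 0.05 was not counted, here or in the contrasts below. DESeq2 called DDR1 and ERBB4.

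ERBB4 was higher in the marginal zone and hairy cell lines than in the GCB lines by 3.84 ± 0.90 on the log2 scale (SE, adjusted p = 0.0096, edgeR quasi-likelihood test). HAIR_M had 2321 CPM, KARPAS1718 569 CPM, HC_1 118 CPM, SSK41 18.2 CPM and VL51 7.32 CPM, against a lowest of 4.58, a median of 30.6 and a highest of 131 CPM in the GCB lines. The groups overlapped: HAIR_M and KARPAS1718 lay above every GCB line, and the other 3 lines lay within the GCB range. Without HAIR_M the difference was 2.07 on the log2 scale and did not pass (adjusted p = 0.46, edgeR). The same held with limma on the authors' log2 values (2.13, adjusted p = 0.39). In this contrast 1 kinase was higher (background 3.08% of genes) and none lower (0.125%), and 3 kinases, ERBB4, DDR1 and EPHB4, had an unadjusted p under 0.05.

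In mantle cell lines against GCB lines none of the 22 kinases passed by edgeR, where 2.37% of genes were higher and 1.83% lower. An unadjusted p under 0.05 was found for 4, ERBB4, FLT3, CSF1R and MET, and DESeq2 called CSF1R and MET. CSF1R differed by -1.73 ± 0.66 on the log2 scale (adjusted p = 0.13, edgeR). Its mantle cell lines ran from 0.986 CPM, a level below the control target, through a median of 5.83 to 8.42 CPM. Its GCB lines ran from 1.13 through 7.61 to 125 CPM, with the highest value from OCILY19. FLT3 was lower by 2.26 ± 0.80 on the log2 scale (log2 difference -2.26, adjusted p = 0.097, edgeR). Its 9 mantle cell lines ran from 0.514 through a median of 9.19 to 12.9 CPM. The lowest, from GRANTA519, lay below that library's highest control target. The 14 GCB lines ran from 1.44 through 11.8 to 327 CPM, with the highest value from OCILY19. MET differed by -2.02 ± 0.78 (adjusted p = 0.14, edgeR): the mantle cell lines ran from 16.3 through 28.5 to 76.6 CPM and the GCB lines from 8.12 through 38.4 to 983 CPM. ERBB4 differed by 1.78 ± 0.79 (adjusted p = 0.20, edgeR), and without JEKO1 by -0.51. FLT1 had a median of 35.9 CPM in mantle cell lines and 2.31 CPM in GCB lines, with a difference of 1.77 ± 0.94 that did not pass (adjusted p = 0.30, edgeR). The mantle cell range of 0.648 to 230 CPM covered nearly the whole GCB range of 0.0913 to 130 CPM. Both lowest values came from counts below the highest control target of their library.

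In ABC lines against GCB lines none of the 22 passed by edgeR, where 1.41% of genes were higher and 0.333% lower. ERBB2 and DDR1 had an unadjusted p under 0.05, and DESeq2 called DDR1. DDR1 was at 769 CPM in RIVA, 503 in TMD8, 398 in SUDHL2, 82.9 in U2932 and 36.9 in HBL1. In the GCB lines it ran from 8.50 through a median of 61.3 to 326 CPM, so RIVA, TMD8 and SUDHL2 lay above every GCB line and the other ABC lines did not. DDR1 was not higher in ABC lines alone. The marginal zone and hairy cell lines ran from 92.2 through 199 to 382 CPM, with a mean log2 CPM of 7.73 against 7.76 in ABC lines. The difference of ABC from GCB lines in DDR1 was 2.08 ± 0.62 on the log2 scale (adjusted p = 0.073, edgeR). ERBB2 differed the other way, by -0.89 ± 0.41 (adjusted p = 0.29, edgeR), with 23.3 CPM in SUDHL2, 29.7 in TMD8, 34.9 in U2932, 67.2 in HBL1 and 73.3 in RIVA against 33.1 through 81.9 to 138 CPM in GCB lines. The 3 contrasts share the GCB lines and were not set against each other.

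**Figure D3:**
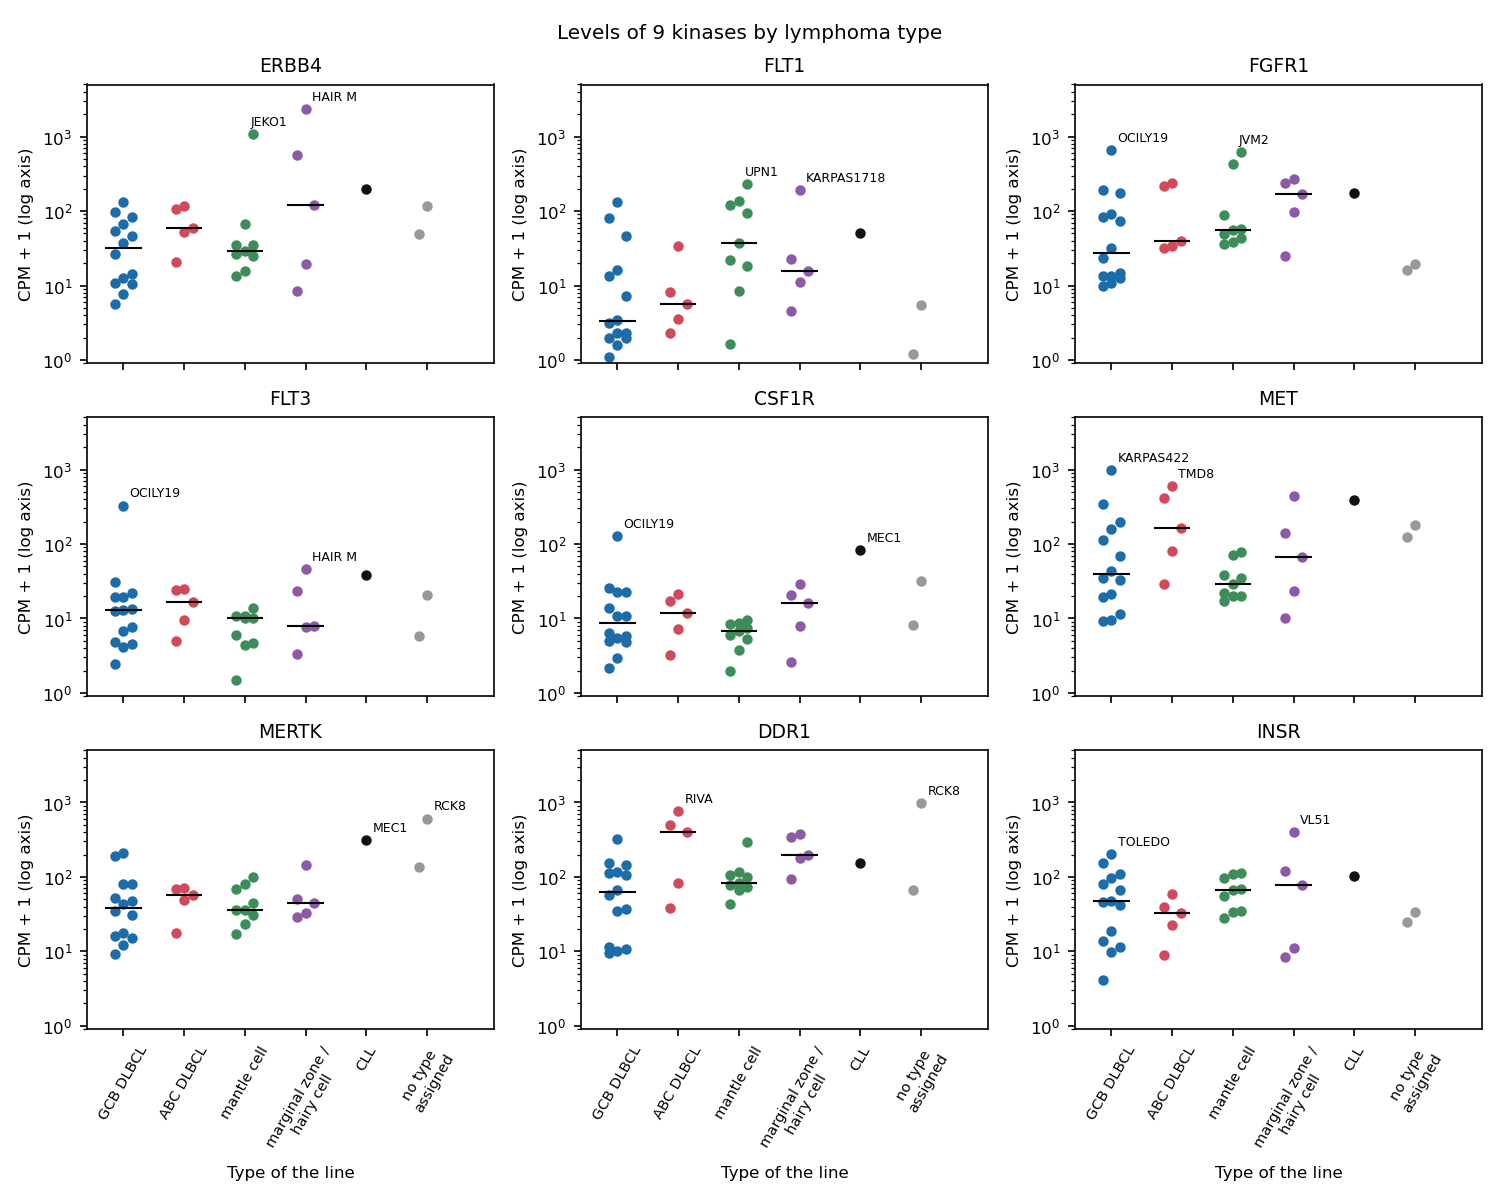
CPM + 1 on a log axis for 9 kinases, with each point 1 line, lines grouped by type along the horizontal axis, black bars at the group's median where it has more than 2 lines, and the 2 highest lines of each kinase named. The groups overlap for every kinase shown; the high ERBB4 lines are split between HAIR_M (2321 CPM), JEKO1 (1074 CPM) and KARPAS1718 (569 CPM), of which JEKO1 is a mantle cell line and the others belong to the marginal zone and hairy cell group.

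Many of the kinases moved with the composition of the library. The slope of each gene on the log2 TMM factor was fitted over the 36 lines by edgeR, and a gene with a constant share of its library would have a slope of -1. Of the 22 kinases, 12 rose with the factor and none fell, while 29.4% of all genes rose and 31.4% fell. The 12 were ALK, MET, PDGFRA, FGFR2, EGFR, EPHA2, FGFR3, MERTK, PDGFRB, NTRK2, TIE1 and MST1R, and the same 12 rose without MEC1. The steepest was ALK (slope 4.11 ± 0.47, SE, adjusted p = 3.1e-09), followed by MET (3.90 ± 0.77, adjusted p = 5.1e-05) and PDGFRA (2.96 ± 0.34, adjusted p = 2.9e-09). ALK was at 1.47 CPM in SUDHL4, where the factor was 0.677, and at 187 CPM in SUDHL10, where it was 1.40. ERBB4, FLT3, FGFR1, FLT1, INSR, DDR1, CSF1R, ERBB2, FGFR4 and EPHB4 did not pass, and the slopes of FGFR1 and FLT1 were -0.95 ± 0.69 and -0.98 ± 0.89. The median slope was 1.73 over the 22 kinases and -0.35 over all genes tested. Each level had been divided by the same factor, so the levels and the factor are not independent measures, and the source of the relation was not tested.

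**Figure D4:**
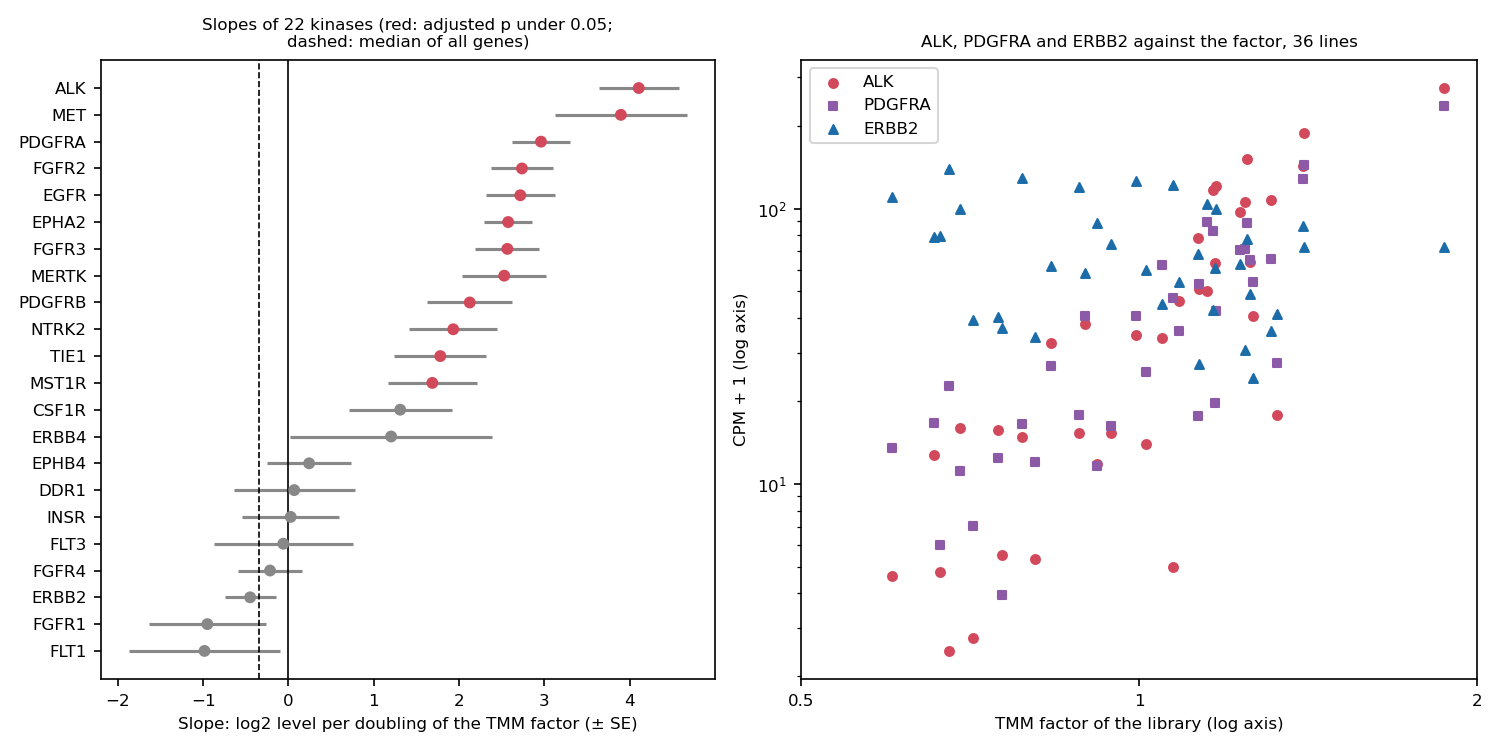
Left, the slope of 22 kinases on the log2 TMM factor with its SE, in red where the adjusted p was under 0.05, with the median of all genes (-0.35) as a dashed line; right, CPM + 1 of ALK, PDGFRA and ERBB2 against the factor, both axes logarithmic, 1 point a line. ALK and PDGFRA climb with the factor and ERBB2 does not.

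The ligands on the panel showed the same lean. Of 9 tested ligands of ERBB receptors 7 rose with the factor, as did 13 of 15 fibroblast growth factors and 8 of 13 other ligands (1 of these fell). None of the ligands of ERBB receptors or the fibroblast growth factors fell. The median slopes were 2.06, 2.06 and 1.52. Among 28 tested adaptor and RAS pathway genes 3 rose and 17 fell, with a median slope of -0.88. Of 7 tested ligands of the PDGF and VEGF families 1 rose (PDGFB) and 2 fell (VEGFA and VEGFB). Of the cytokine-type ligands KITLG, CSF1 and FLT3LG, KITLG rose (slope 1.60 ± 0.40, adjusted p = 0.0009) and the others did not pass. Markers of other cells moved too: 6 of 8 tested myeloid, 5 of 9 epithelial and neural and 4 of 9 stromal and endothelial markers rose, with median slopes of 2.15, 1.79 and 1.20, and 1, 0 and 1 fell. Of 7 B-cell markers none rose and 2 fell. The part of these markers in the kinases' slopes was not tested.

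Genes that act with the receptors were tested between types in the same way. In the F test 1 of 9 ERBB ligands was called (NRG2), 2 of 7 PDGF and VEGF ligands (PDGFA and PDGFC), 2 of 13 other ligands (MST1 and GAS6), 2 of 6 ephrins (EFNA3 and EFNA5), 1 of 15 ERK targets (SPRY2), and none of 15 fibroblast growth factors or 28 adaptor and RAS genes. GAS6, the ligand of MERTK and AXL, was higher in mantle cell than in GCB lines by 3.34 ± 0.65 on the log2 scale (adjusted p = 0.0016, edgeR), and was highest in SP49 (148 CPM) and GRANTA519 (56.2 CPM). PDGFA was higher there by 2.83 ± 0.71 (adjusted p = 0.018, edgeR), with 795 CPM in GRANTA519 and 391 CPM in MINO. Without GRANTA519 it did not pass (2.23, adjusted p = 0.074, edgeR). PDGFC was called in both contrasts through single lines. It was at 182 CPM in HAIR_M, 109 CPM in GRANTA519, 34.4 CPM in HC_1 and 22.1 CPM in MEC1, and at 3.48 CPM or below in every other line. PDGFC thus passed the filter on low counts only through the lines where it was high. Its p-values are not independent of that filter and add no support to a difference between types. The mantle cell difference of 4.26 ± 1.23 (adjusted p = 0.042, edgeR) was 0.21 without GRANTA519 (adjusted p = 0.94). The marginal zone and hairy cell difference of 6.04 ± 1.37 (adjusted p = 0.0094, edgeR) was 3.76 without HAIR_M (adjusted p = 0.20). NRG2, a neuregulin, was higher in marginal zone and hairy cell than in GCB lines by 3.39 ± 0.90 (adjusted p = 0.027, edgeR), with 269 CPM in VL51 and 192 CPM in HAIR_M, and did not pass without VL51 (adjusted p = 0.13) or without HAIR_M (0.092). SPRY2, a Sprouty gene, was higher in marginal zone and hairy cell lines by 3.87 ± 0.66 (adjusted p = 0.00064, edgeR), and in mantle cell lines by 2.97 ± 0.59 (adjusted p = 0.0021), with 439 CPM in HC_1 and 227 CPM in HAIR_M. Among the markers of other cells 1 myeloid gene, ITGAM, was called over types, with 110 CPM in GRANTA519 and 51.8 CPM in MAVER1. It was higher in mantle cell than in GCB lines by 3.35 on the log2 scale (adjusted p = 0.018, edgeR), did not pass without GRANTA519 (2.51, adjusted p = 0.078), and its part in these differences was not tested. EFNA3, EFNA5 and MST1 were lower in mantle cell than in GCB lines, with log2 differences of -1.90, -3.96 and -1.83 (adjusted p = 0.0081, 0.047 and 0.046, edgeR). With each line left out in turn the adjusted p by edgeR ran up to 0.019 for EFNA3, 0.081 for EFNA5 and 0.096 for MST1, and up to 0.019 for GAS6 and 0.010 for SPRY2. EFNA3, GAS6 and SPRY2 thus passed with any 1 line left out. The lower levels were not particular to mantle cell lines. In ABC lines EFNA3, EFNA5 and MST1 differed from GCB lines by -1.25, -4.45 and -1.98 on the log2 scale. In marginal zone and hairy cell lines they differed by -0.99, 2.79 and -1.75. None of these differences passed (adjusted p from 0.18 to 0.42, edgeR). Whether a ligand differed between types more than its receptor was not tested.

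Of 68 pairs of a receptor with a ligand, coreceptor, partner or neighbour, 31 had both genes measured. Each gave 1 relation across the 36 lines (32 lines for PDGFRA with PDGFC, which was at a separate high level in the others), and p-values were adjusted over the 31. A pair passed where both Pearson r and Spearman rho had an adjusted permutation p under 0.05. This held for 10 pairs, all positive: EGFR with TGFA and EREG, ERBB4 with NRG4, FGFR2 with FGF7, FGFR3 with FGF9, PDGFRB with PDGFB, MET with HGF, NTRK2 with BDNF, ALK with PTN and EPHA2 with EFNA1. The strongest was ALK with pleiotrophin (PTN), with r = 0.83 and rho = 0.89. MET with its ligand HGF had r = 0.76 and rho = 0.79, FGFR3 with FGF9 r = 0.76 and rho = 0.74, and NTRK2 with its ligand BDNF r = 0.74 and rho = 0.70. For these 4 the permutation p of r was 1e-05, the smallest that 100000 permutations can give, and the adjusted p was 6.2e-05. The other 6 had r from 0.52 to 0.72. Without the 2 lines farthest from the receptor's median, r was 0.85 for ALK, 0.79 for MET, 0.70 for FGFR3 and 0.69 for NTRK2. In the same check ERBB4 with NRG4 went from 0.52 to 0.78, and EGFR with TGFA and EREG went to 0.42 and 0.40 and no longer passed. All 10 pairs passed without MEC1.

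Every gene of the 10 passing pairs other than ERBB4 rose with the composition factor, so the pairs were computed again after both genes were regressed on the log2 factor. PDGFRA with PDGFA and with PDGFC were not computed again. Then 5 pairs passed, of which 4 had passed before: NTRK2 with BDNF (r = 0.51), ALK with PTN (0.51), MET with HGF (0.49) and FGFR3 with FGF9 (0.45). EGFR with TGFA fell to r = -0.016 and EGFR with EREG to 0.029. EGFR with HBEGF passed only after the regression, with r = -0.51. The share of all genes tested that followed the receptor at least as closely as the ligand did gives the background. It was 1.70% for FGFR3 and FGF9, 3.37% for MET and HGF, 6.20% for ALK and PTN, 7.61% for NTRK2 and BDNF, and 20.4% for EGFR and TGFA. After the regression it was 0.333%, 2.12%, 7.19%, 8.19% and 58.9% in the same order.

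Of the 11 receptors high in few lines, EGFR, ERBB4, MET, NTRK2 and ALK passed with a ligand, and FLT3, CSF1R, MERTK, FGFR1 and INSR did not. No pair was computed for DDR1. After the regression on the factor, ERBB4 with NRG4 (r = 0.26) and EGFR with TGFA and EREG did not pass. FLT3 with FLT3LG had r = -0.077 (adjusted permutation p = 0.76), CSF1R with CSF1 r = 0.24 (0.30), MERTK with GAS6 r = 0.17 (0.43), FGFR1 with FGF2 r = 0.21 (0.37) and INSR with IGF2 r = 0.37 (0.067). FLT1 had r = 0.20 with VEGFA (0.39). Of the neighbours on a chromosome, FLT1 with FLT3 on chromosome 13 had r = 0.061. PDGFRB with CSF1R on chromosome 5 had r = 0.38 (adjusted permutation p = 0.067) and rho = 0.47 (adjusted permutation p = 0.011), so it passed by rank only. No relation was computed for PDGFRA with KIT or KIT with KDR, since KIT and KDR did not pass the filter.

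**Figure D5:**
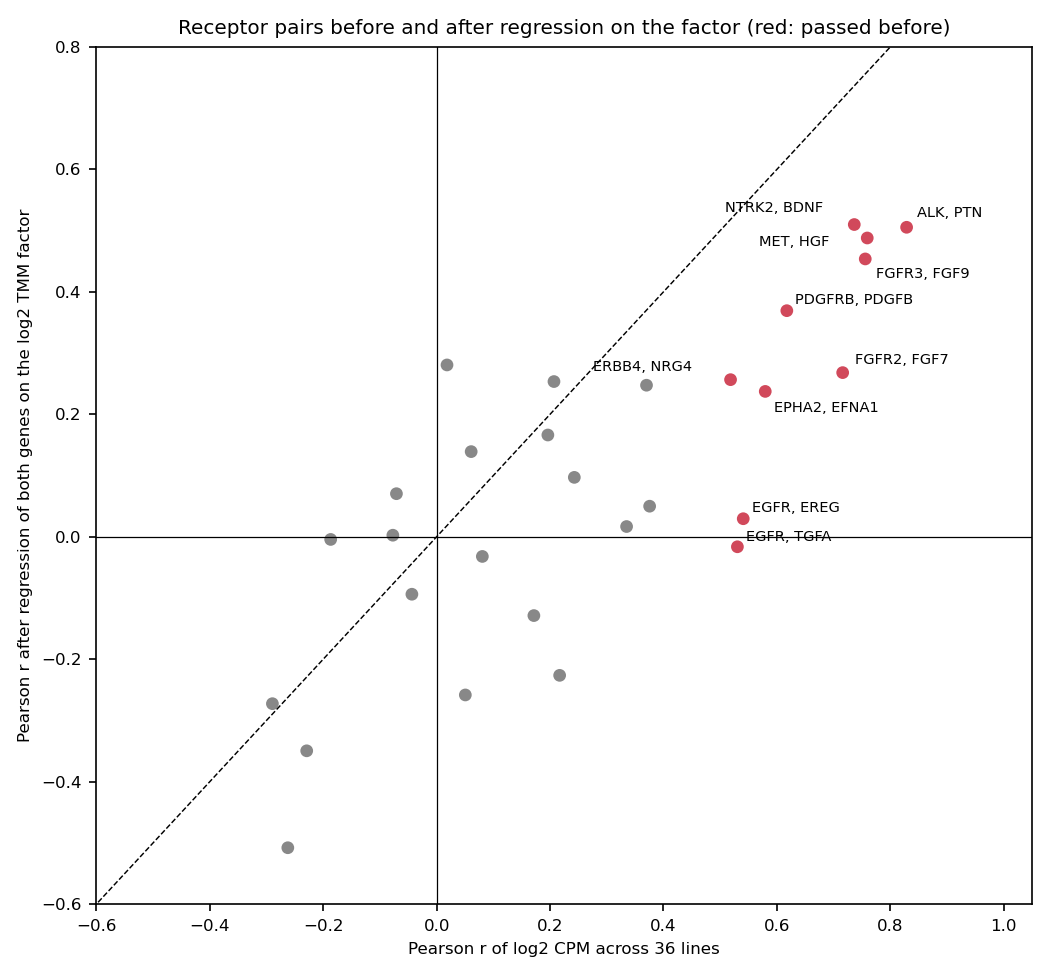
Pearson r of receptor pairs over the 36 lines, as measured (horizontal) and after regression of both genes on the log2 TMM factor (vertical), with the 10 pairs that passed as measured in red and the dashed line marking equality. PDGFRA with PDGFA and with PDGFC had no value after the regression and are not shown. All 10 red points lie below the line, with ALK and PTN at 0.83 and 0.51 and EGFR and TGFA at 0.53 and -0.016.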

How the data were processed

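Counts of 2559 targets in 36 libraries were deposited by the authors as whole numbers, with no scaling. The second deposited table holds log2 values of the same libraries. The authors' numbers there differed by at most 0.0054 from log2(count / library factor + 1). The submitters' processing notes name the build as hg38. Aligner, counter and strand setting: not given in the sources used here. Reads shared with overlapping genes therefore cannot be separated. Targets named ER and a number (10, identity not stated) were treated as controls and left out of totals, holding a median of 0.000209% of counts.

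Counts were scaled by TMM factors in edgeR 4.0.16 (R 4.3.3) to CPM. On the log2 scale 2 counts were added as a prior. The tests took the 2406 genes that reached 10 CPM in 4 lines or more. Types, contrasts and slopes used edgeR's quasi-likelihood test, checked on simulated counts. Pairs used 100000 two-sided permutations of lines (scipy 1.17.1). Lines were treated as separate clusters for a gene whose sorted log2 CPM had a break of 1.5 or more that also spanned 20% of the range and left 4 or more lines on either side. Intervals are exact Poisson intervals at 95%. A count of 0 was taken to allow 3 counts. P-values measure the spread between lines, each 1 library. DESeq2 1.42.0 and limma 3.58.1 served as alternatives. Coordinates came from GENCODE 29 and promoters from RefSeq.

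Named in full were the kinases high in few lines, those called over types, those with the largest SD, the 3 genes nearest to each kinase high in few lines, both genes of passing pairs, and list genes called over types. The members, lists, pairs and thresholds were chosen with earlier results of these data known.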

Additional observations from a re-analysis of the deposited data

Results flagged for a closer look

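Each tested kinase was examined for a line far from the rest within the ABC, mantle cell and marginal zone or hairy cell groups, by Dixon's criterion on log2 CPM. This gave 66 groups of values, of which 5 held such a line, where chance alone would give about 3.3. ERBB4 in JEKO1 (1074 CPM) stood above the other mantle cell lines, of which the next was UPN1 at 65.3 CPM. FLT3 in GRANTA519 (0.514 CPM) lay below the next mantle cell line, JEKO1, at 3.40 CPM. This value came from 4 counts, fewer than the 8 of that library's highest control target. MERTK in SUDHL2 (16.5 CPM) lay below the next ABC line, RIVA, at 48.7 CPM. NTRK2 in RIVA (6.17 CPM) lay below the next ABC line, SUDHL2, at 36.8 CPM. EPHB4 in KARPAS1718 (4.93 CPM) lay below the next marginal zone or hairy cell line, SSK41, at 16.8 CPM.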

How the results depend on the processing

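The count of kinases called over types was 1 and became 2 with the log2 TMM factor as a covariate (TIE1 added) and 2 with DESeq2 (DDR1 added), and 0 with limma on the authors' log2 values and 0 without HAIR_M, JEKO1, KARPAS1718 and OCILY19, a set chosen after seeing the data. For marginal zone or hairy cell against GCB lines the count of 1 became 2, 0 and 0 under the covariate, limma and the same set left out. For ABC against GCB, DESeq2 called 1 in place of 0, and for mantle cell against GCB 2 in place of 0. Leaving out each line in turn gave 0 to 2 calls over types, 0 to 1 in each contrast, 12 to 14 slopes and 10 to 12 pairs; the second call over types was DDR1 without HBL1, JVM2 or OCILY8 and EPHB4 without MINO, and there was none without HAIR_M. EPHB4 was also the 1 call of the mantle cell contrast, without MINO, and DDR1 that of the ABC contrast, without OCILY8. ERBB4 in mantle cell against GCB lines ran from -0.51 (without JEKO1) to 2.03 on the log2 scale, and was -0.59 without the 4 lines. After regression on the factor 5 pairs passed in place of 10, of which 4 had passed before, and EGFR with TGFA turned to r = -0.016. At 16 times the median 5 kinases were high in few lines (10.9% of panel genes), and at 20 CPM 17 (27.5%), against 11. Under the other 8 settings the count ran from 8 to 16 of the 30 kinases, and the share of panel genes from 19.5% to 46.2%. At 4 times the median 14 of the 30 kinases met the rule, against 46.2% of panel genes. The median SD of the tested kinases was 1.37 to 1.53 with other prior counts and 1.47 without MEC1. Over all genes, calls over types were 148, against 273 by DESeq2 and 47 by limma. Calls for ABC were 42, against 125, 2 and, without HBL1, 24. Mantle cell calls were 101, against 212, 66, 178 with the covariate and 63 without JVM2. Marginal zone or hairy cell calls were 77, against 7 by limma, 36 without HAIR_M, 41 without VL51 and 47 without the 4 lines. With limma, EFNA3, PDGFA, ITGAM and SPRY2 passed in mantle cell lines, and GAS6, MST1, EFNA5 and PDGFC there and NRG2, PDGFC and SPRY2 in marginal zone or hairy cell lines did not. The cause of these changes was not tested.

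Each line had 1 library, so no value has an error between replicates. Lymphoma types were not in the labels. No paired analysis was possible because each line was measured once and the replicate numbers only follow the order of deposit. Kinases that missed the threshold are not shown to be equal between types. Levels near the control targets are uncertain, above all in MEC1.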

Other observations

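A pair of genes outside the 30 kinases was also highest in OCILY19; both were singled out after their values were seen. IGF1R, the receptor of insulin-like growth factor 1, was at 727 CPM there and at 725 CPM in OCILY8, over a median of 97.4 CPM, so these lines barely differed. CD44, a surface receptor of hyaluronan that acts as a coreceptor of MET, was at 8121 CPM in OCILY19 and 6524 CPM in HBL1, over a median of 586 CPM. BMP4, a secreted factor among the nearest genes of ERBB4 (r = 0.67), was at 1783 CPM in HAIR_M and at 67.8 CPM in the next line, MEC1. Without HAIR_M its r with ERBB4 was 0.53.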
